A study of Homo sapiens with 36 samples.

Results

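Binding of V5-tagged HIF-α was examined around 6 genes of the EGFR pathway: the ligands TGFA, EREG, AREG and HBEGF, the receptor EGFR and its inhibitor ERRFI1. A window was drawn for each gene from 100 kb before to 100 kb after its GENCODE gene body, and every anti-V5 Cut&Run peak with its summit in a window was taken. The 6 windows held 755 of the 213711 peaks in the 18 lists. Peaks that overlapped by at least 1 bp were merged across lists, which gave 148 sites here of 61215 merged regions in the genome. Of these sites, 86 were called in at least 2 lists, as were 25783 regions genome-wide.

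Cut&Run tethers a nuclease to an antibody on chromatin and sequences the fragments it releases. The cells were 786-O, a VHL-deficient line from human clear cell renal carcinoma, in which HIF-2α escapes degradation without hypoxia. Per the paper, 786-O cells have no functional HIF-1α of their own, because of a truncating mutation. There were 6 lines with 3 anti-V5 libraries each. WT cells carried no tag and gave the background of the antibody. The HIF-2a KIN line was a single homozygous clone, A31, with V5 and Halo on the N-terminus of endogenous HIF-2α. The remaining 4 were stable lines in which the L30 promoter drove an exogenous protein with the same N-terminal tags, in cells that kept their own untagged HIF-2α. Named for that protein, they were HIF-2a, HIF-1a, HIF-2a/1a (residues 1 to 365 of HIF-2α and 364 to 826 of HIF-1α) and HIF-1a/2a (residues 1 to 363 of HIF-1α and 366 to 870 of HIF-2α). The N-terminal part holds the DNA-binding and dimerization domains and is called the DBD below, and the C-terminal part is the intrinsically disordered region, or IDR. The 15 libraries of the 5 lines with a tag are called tagged.

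EGFR is a receptor tyrosine kinase at the cell surface. TGFα, amphiregulin (AREG), epiregulin (EREG) and HB-EGF are made as membrane-bound precursors, are released by proteases and activate EGFR on the same or on neighbouring cells. ERRFI1, also called MIG6, binds the active kinase and shuts it off. In clear cell renal carcinoma, TGFα is a known target of HIF and a growth signal for VHL-deficient cells. HIF-1α and HIF-2α each pair with HIF-1β and recognize the hypoxia response element (HRE), searched here as ACGTG or GCGTG on both strands.

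The lists differed in length, from 3984 to 20808 peaks in the tagged libraries, and read totals are not in the lists. WT replicates 1 and 3 had 392 and 743 peaks, and WT replicate 2 stood apart with 9508. Replicate 2 had the longest list in each tagged line as well. A tagged library called between 22 and 71 of the 148 sites, while the WT libraries called 0, 26 and 4 in replicates 1, 2 and 3. Of the 21 sites called in 2 or more lists that had a WT call, 18 had it in WT replicate 2 alone. Absence of a peak from a list does not show that the site was unbound.

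Peaks were called in every tagged library at sites of TGFA, EGFR and ERRFI1, most of them distal or intronic, and at no site of AREG, EREG or HBEGF that often. In the EGFR window 7 sites were called in all 15 tagged libraries, in the ERRFI1 window 4 and in the TGFA window 3. These 14 sites were 16.3% of the 86, where 6.67% of regions genome-wide were called in all 15. Only 7 of them had no WT call, which is 8.1% of the 86, where 4.66% of regions genome-wide were of that kind. Of the 14 summits, 7 lay in introns, 6 between protein-coding genes and 1 in a noncoding exon of PARK7, a neighbour of ERRFI1. Only the PARK7 summit and 1 intergenic summit, that before ERRFI1, were within 1 kb of the start of a protein-coding gene. The windows differed in width, from 209.9 kb for AREG to 392.6 kb for EGFR, so that counts are not comparable per base between genes.

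**Figure D1:**
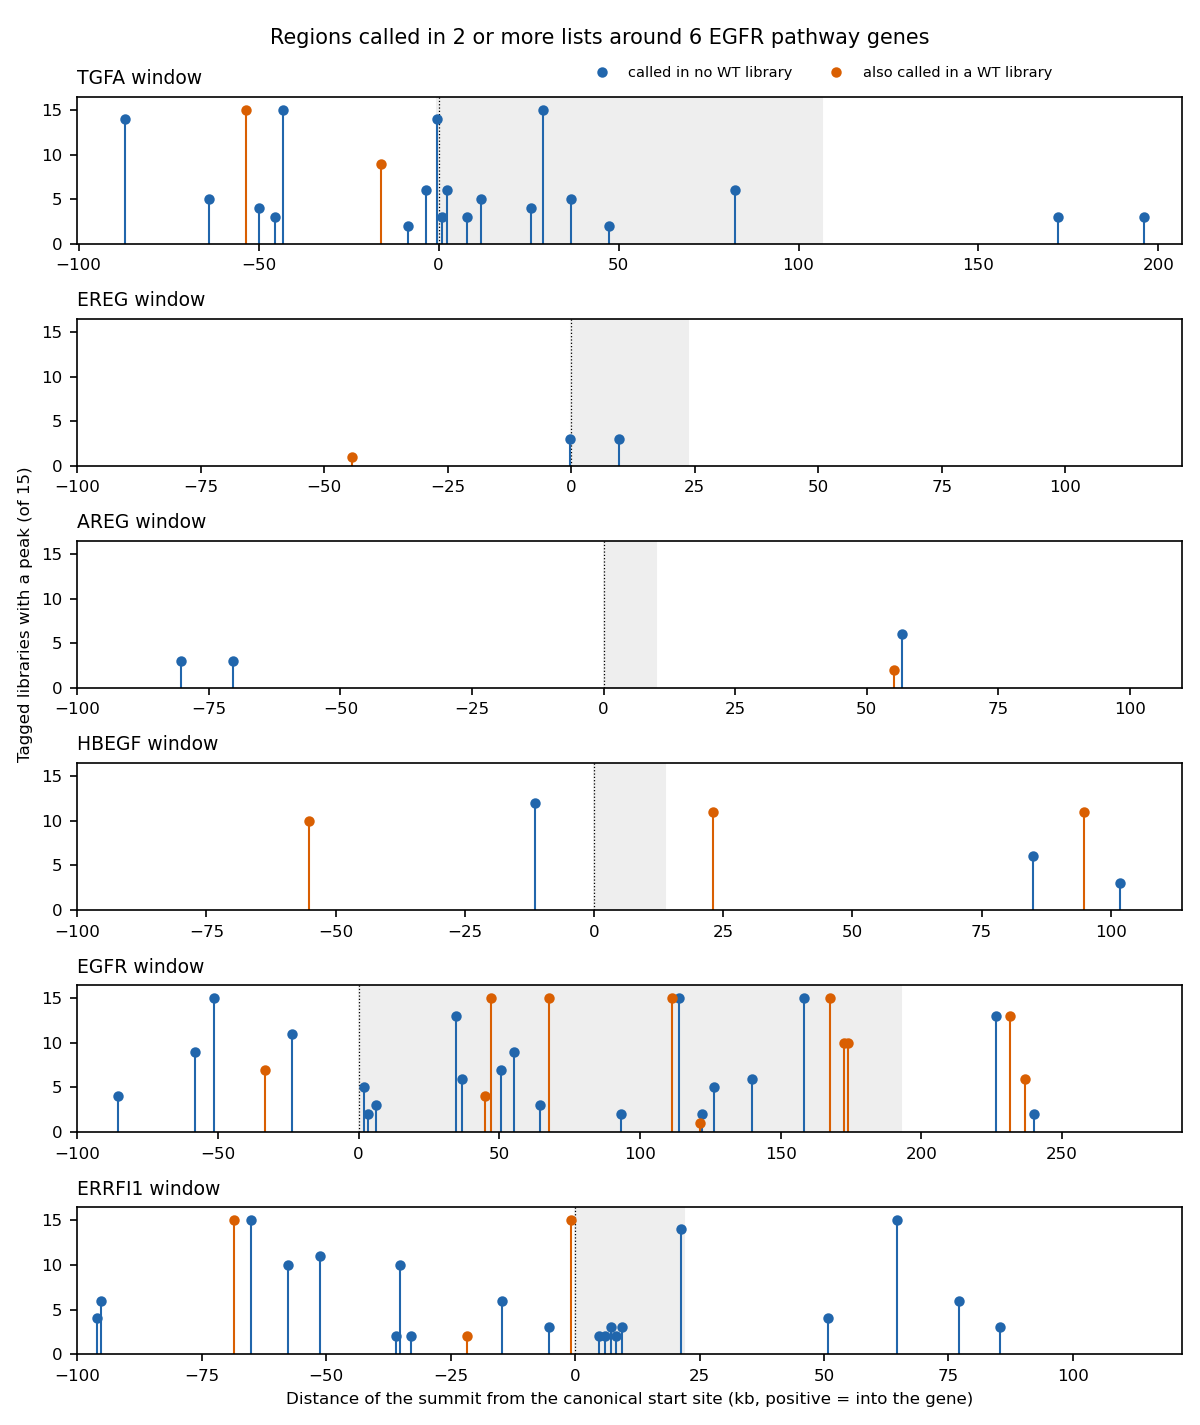
Sites called in 2 or more lists in each window. The x axis gives the distance of the summit from the gene's start in kb, positive into the gene, grey marks the gene body, and the y axis gives how many of the 15 tagged libraries called the site. Orange sites were also called in a WT library. The 14 sites at 15 libraries lie in the TGFA, EGFR and ERRFI1 windows.

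Sequences are given first, on hg38, plus strand, 5′ to 3′. Capitals mark the HRE in either orientation, so that CACGT and CACGC are the same motifs read from the other strand. The first set is 101 bases centred on the summit for the sites with an HRE within 50 bp of it: 4 called in all 15 tagged libraries, the TGFA promoter site, and the EGFR intron site on which the comparison of HIF-1a with HIF-2a turned.
TGFA, 43.2 kb upstream, chr2:70596952-70597052: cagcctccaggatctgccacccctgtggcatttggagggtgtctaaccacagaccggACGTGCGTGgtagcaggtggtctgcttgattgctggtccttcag
TGFA promoter, chr2:70554197-70554297: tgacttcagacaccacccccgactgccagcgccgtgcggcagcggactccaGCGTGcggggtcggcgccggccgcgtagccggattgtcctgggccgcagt
EGFR, 51.3 kb upstream, chr7:54967650-54967750: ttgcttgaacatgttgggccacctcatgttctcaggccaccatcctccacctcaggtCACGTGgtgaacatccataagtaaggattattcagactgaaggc
EGFR intron, 34.4 kb into the gene, chr7:55053383-55053483: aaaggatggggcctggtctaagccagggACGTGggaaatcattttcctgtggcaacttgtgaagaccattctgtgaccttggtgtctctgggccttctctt
EGFR intron, 158.4 kb into the gene, chr7:55177347-55177447: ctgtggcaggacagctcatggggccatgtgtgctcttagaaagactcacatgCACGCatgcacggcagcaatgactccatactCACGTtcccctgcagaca
EGFR intron, 167.5 kb into the gene, chr7:55186485-55186585: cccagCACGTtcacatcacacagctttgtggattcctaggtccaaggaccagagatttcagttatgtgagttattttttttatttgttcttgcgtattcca

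At the TGFA upstream site 2 HREs overlap in 1 run, ACGTGCGTG, with their centres 9 and 13 bp from the summit. At the EGFR site 51.3 kb upstream the motif is the palindrome CACGTG, which counts once on each strand. At the strongest EGFR site, 167.5 kb into the gene, the HRE was 43 bp from the summit, near the edge of the window.

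The second set is the nearest HRE with 13 bases on each side for the shared sites that had none within 50 bp of the summit. The summit is that of the list with the best rank, and other lists can have theirs elsewhere in the region.
TGFA intron, 29.1 kb into the gene, chr2:70524421-70524451: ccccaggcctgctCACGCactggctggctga
TGFA, 53.5 kb upstream, chr2:70608565-70608595: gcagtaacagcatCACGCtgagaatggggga
EGFR intron, 47.1 kb into the gene, chr7:55066031-55066061: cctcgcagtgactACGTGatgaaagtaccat
EGFR intron, 67.7 kb into the gene, chr7:55086657-55086687: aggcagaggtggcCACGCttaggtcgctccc
EGFR intron, 111.3 kb into the gene, chr7:55130245-55130275: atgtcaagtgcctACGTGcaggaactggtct
EGFR intron, 113.9 kb into the gene, chr7:55132662-55132692: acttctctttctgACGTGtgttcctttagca
ERRFI1 promoter, chr1:8027250-8027280: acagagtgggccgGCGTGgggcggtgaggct
ERRFI1, 65.0 kb upstream, chr1:8091201-8091231: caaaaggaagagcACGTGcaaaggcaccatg
ERRFI1, 68.5 kb upstream, chr1:8094632-8094662: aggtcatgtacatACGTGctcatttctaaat

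These HREs lay between 70 bp (EGFR, 111.3 kb into the gene) and 1214 bp (TGFA, 53.5 kb upstream) from that summit. At this TGFA site the summits of the tagged lists lay up to 1212 bp from it, so the distance does not hold for every list. All 14 merged regions called in the 15 tagged libraries held at least 1 HRE, over widths that reached 4273 bp. Within 50 bp of the summit, 5 of the 14 held an HRE, against 564 (32.8%) of the 1720 regions of that kind genome-wide. Of the 86 sites, 18 (20.9%) had one, against 24.1% of the 25783 regions, a lower share. The AP-1 motif, TGACTCA or TGAGTCA, was within 50 bp of the summit at 0 of the 14 sites and 4 of the 86, where 8.29% of all regions held it.

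The TGFA window held 36 sites, of which 21 were called in at least 2 lists. The site 43.2 kb upstream of the TGFA start (chr2:70595959-70598296), between TGFA and ADD2, was the strongest of the 148. When the peaks of each list were ordered by their p-value, its median place over the tagged libraries was 11, and it placed sixth to seventh among the 1720 regions called in all 15 by that median (place 6.5). Its place was 10, 17 and 8 in the 3 HIF-2a KIN lists, 4, 4 and 3 in HIF-2a, 6, 4 and 14 in HIF-2a/1a, and 17, 11 and 17 in HIF-1a/2a. In HIF-1a it was 33, 44 and 111. The lists differ in length, and as a share of the list the place was 0.219%, 0.214% and 0.698% in HIF-1a and 0.251% in HIF-2a KIN replicate 1, with the other 11 tagged lists at 0.146% or less. No WT list held the site. Ordered by fold enrichment instead, its median place was 61.

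The fold enrichment of this site over the local background, as deposited, was 46.5, 100.2 and 51.3 in HIF-2a KIN replicates 1, 2 and 3. It was 91.0, 127 and 50.1 with HIF-2a and 161, 124 and 63.7 with HIF-2a/1a. It was 48.9, 43.8 and 32.6 with HIF-1a and 66.2, 107 and 54.0 with HIF-1a/2a. The mean with HIF-1a was 41.8 ± 8.33 (SD, n = 3) and that with HIF-2a 89.2 ± 38.3 (SD, n = 3), and the lowest HIF-2a library lay just above the highest HIF-1a library.

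The TGFA intron site, 29.1 kb into the gene (chr2:70524057-70525584), was likewise called in all 15 tagged libraries and no WT library, with a median place of 479.5. Its fold was 6.50, 9.10 and 15.6 in HIF-2a KIN and 25.8, 40.8 and 26.4 with exogenous HIF-2a. It was 78.1, 20.2 and 42.8 with HIF-2a/1a, 53.3, 16.6 and 37.0 with HIF-1a, and 13.8, 28.3 and 20.6 with HIF-1a/2a. The 3 KIN libraries were all below the exogenous HIF-2a libraries, and the lines with exogenous protein overlapped each other. The third shared site, 53.5 kb upstream (chr2:70606961-70609038), had a median place of 5210.5 and a call in WT replicate 2 with a fold of 4.58. Its folds were 9.41, 5.68 and 4.10 in HIF-2a KIN, 7.23, 16.8 and 7.01 in HIF-2a, 8.95, 7.96 and 4.15 in HIF-2a/1a, 5.71, 14.5 and 5.95 in HIF-1a and 12.9, 24.8 and 8.46 in HIF-1a/2a, so that some tagged values lay below that of WT.

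The TGFA promoter site (chr2:70553420-70554781, summit 421 bp before the canonical start) was called in 14 of 15 tagged libraries and no WT library, and was missing from HIF-2a replicate 3. Its folds were between 6.71 and 32.1, below those of the upstream site in every one of the 14 lists. A site 87.2 kb upstream, in an intron of ADD2, was called in 14 as well. A site 16.0 kb upstream was called in 9 tagged libraries and WT replicate 2. The other 15 sites of this window that were called in 2 or more lists were called in 2 to 6 tagged libraries.

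HBEGF, AREG and EREG had no site called in all 15 tagged libraries, like 79.4% of protein-coding genes. Sites in 2 or more lists numbered 6, 4 and 3, where the median over 20033 protein-coding genes was 3. The HBEGF window held 13 sites, and 6 were in at least 2 lists. Its most frequent site lay 11.4 kb upstream of HBEGF and nearer to the start of SLC4A9 (chr5:140357777-140358229), with 12 tagged and 0 WT libraries and 3 HRE matches within 50 bp of the summit. Its fold was 12.0, 19.8 and 14.4 in HIF-2a, 19.1, 7.03 and 13.2 in HIF-2a/1a and 16.1, 16.6 and 8.55 in HIF-1a/2a, and it was called in 2 HIF-1a libraries (15.6 and 14.9) and 1 HIF-2a KIN library (8.95). Sites 94.8 kb and 23.1 kb from the HBEGF start were called in 11 tagged libraries each, and the site at the ANKHD1 promoter, 55.1 kb away, in 10. All of these last 3 were also called in WT replicate 2, and the first ranked 26 in WT replicate 3. The HBEGF promoter had a call in 1 library, HIF-2a replicate 2.

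The EREG and AREG windows overlap and shared 5 sites. The EREG promoter site (chr4:74364715-74365550) was called in 3 tagged libraries, 1 each of HIF-2a/1a, HIF-1a and HIF-1a/2a, and in the lower parts of those lists, from 51.0% to 82.0% down. The most frequent AREG site, 56.7 kb beyond its start (chr4:74501667-74502031), was called in 6 tagged libraries, 3 of them HIF-1a. The nearest call to the AREG start was 36279 bp away. The peak of best rank in both windows, 29.8 kb beyond the EREG start (chr4:74394890-74395144), was in WT replicate 3 only, at place 243 with a fold of 9.23.

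EGFR, the receptor, had the most sites, with 47 in its window and 31 in at least 2 lists. It is the only protein-coding gene in that window. None of the 31 lay within 1 kb of the canonical EGFR start, where the only call was that of HIF-1a/2a replicate 1. The strongest site lay 167.5 kb into the gene in an intron that overlaps the antisense transcript EGFR-AS1 (chr7:55184922-55187561). Its fold was 8.65, 32.0 and 27.0 in HIF-2a KIN, 70.6, 49.2 and 13.8 in HIF-2a, 99.3, 86.1 and 51.7 in HIF-2a/1a, 21.1, 55.3 and 34.3 in HIF-1a, and 54.2, 28.7 and 53.2 in HIF-1a/2a. The lines overlapped, and the median place was 96. WT replicate 2 also had a peak there, with a fold of 4.89, below every tagged library.

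The intron site 111.3 kb into EGFR (chr7:55129197-55131485) had a median place of 870. Its fold was 14.7, 21.0 and 21.2 in HIF-2a KIN, 19.6, 51.9 and 22.0 in HIF-2a, 30.8, 37.0 and 12.2 in HIF-2a/1a, 13.1, 30.1 and 21.5 in HIF-1a and 22.7, 46.8 and 28.1 in HIF-1a/2a. All 15 lay above the 4.71 of WT replicate 2, and the lines overlapped.

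Of the 7 shared EGFR sites, 3 were free of WT calls. At 113.9 kb into the gene (chr7:55132045-55134322) the fold was 5.35, 13.6 and 5.00 in HIF-2a KIN, 4.95, 19.0 and 6.48 in HIF-2a, 14.6, 10.5 and 14.1 in HIF-2a/1a, 10.9, 15.8 and 16.0 in HIF-1a and 10.4, 14.3 and 9.83 in HIF-1a/2a. At 158.4 kb (chr7:55176991-55177953) it was 5.57, 11.6 and 3.76 in HIF-2a KIN, 8.31, 30.3 and 9.25 in HIF-2a, 7.21, 26.3 and 8.74 in HIF-2a/1a, 6.98, 19.1 and 12.5 in HIF-1a and 7.85, 43.6 and 18.0 in HIF-1a/2a. In each tagged line replicate 2 was the highest at this site. At 51.3 kb upstream (chr7:54966826-54968205) it was 3.67, 4.42 and 5.47 in HIF-2a KIN, 9.95, 15.5 and 8.18 in HIF-2a, 18.4, 13.4 and 9.32 in HIF-2a/1a, 17.1, 13.8 and 24.5 in HIF-1a and 7.31, 12.0 and 10.2 in HIF-1a/2a. The 3 KIN values there were below all 12 values of the exogenous proteins, before any scaling of the libraries.

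At 2 EGFR sites the WT signal was of the same order as the tagged signal. The site 67.7 kb into the gene (chr7:55086398-55087859) had folds of 7.68 and 8.93 in WT replicates 2 and 3. Its tagged folds were 6.14, 4.78 and 5.93 in HIF-2a KIN, 4.28, 7.81 and 4.39 in HIF-2a, 17.2, 7.78 and 4.29 in HIF-2a/1a, 9.52, 7.57 and 8.06 in HIF-1a and 9.30, 11.1 and 7.99 in HIF-1a/2a. The site 231.6 kb beyond the start, over the noncoding transcript ELDR, ranked 46 and 21 in WT replicates 2 and 3, with folds of 23.7 and 20.0. The first of these was above all 13 tagged values of that site, which reached 21.2, and the second above all but 2.

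The intron site 34.4 kb into EGFR (chr7:55051618-55054033) was called in all 12 libraries with exogenous protein but in only 1 of the 3 HIF-2a KIN libraries, and in no WT library. Its fold was 13.3, 65.3 and 20.1 with HIF-2a and 6.42, 19.3 and 6.26 with HIF-1a. It was 7.32, 42.8 and 13.7 with HIF-2a/1a, 11.9, 15.3 and 14.3 with HIF-1a/2a and 5.03 in the single KIN library. Within each replicate number the HIF-2a library was above the HIF-1a library. At the site 47.1 kb into the gene (chr7:55064984-55066962) the folds were 23.4, 29.7 and 12.4 with HIF-2a and 8.75, 8.23 and 10.3 with HIF-1a, with no overlap of these groups. There they were 16.3, 24.8 and 11.8 with HIF-2a/1a, 13.5, 40.1 and 10.4 with HIF-1a/2a, and 10.4, 11.2 and 11.5 in HIF-2a KIN.

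The remaining EGFR sites called in 8 or more lists lay 58.2, 33.4 and 23.6 kb upstream, with 9, 7 and 11 tagged libraries, and 55.2, 172.4, 174.1 and 226.5 kb from the start on the gene's side, with 9, 10, 10 and 13. Those at 33.4, 172.4 and 174.1 kb were also called in WT replicate 2.

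ERRFI1, the feedback inhibitor of EGFR, had 43 sites in its window, of which 23 were in at least 2 lists. Its strongest site lay 65.0 kb upstream of the start, within the noncoding gene ERRFI1-DT (chr1:8089398-8092584), and was called in all 15 tagged libraries and no WT library. The fold was 13.8, 35.9 and 29.9 in HIF-2a KIN, 44.9, 63.1 and 35.5 in HIF-2a, 42.3, 60.5 and 45.6 in HIF-2a/1a, 25.2, 28.3 and 33.8 in HIF-1a and 64.0, 91.8 and 40.0 in HIF-1a/2a. The HIF-1a libraries were all below those of the other 3 exogenous proteins, and overlapped those of HIF-2a KIN. The median place was 357.

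The ERRFI1 promoter site (chr1:8025421-8029693) was called in all 15 tagged libraries, but its best rank of all was in WT replicate 2, at place 223 with a fold of 17.3. The tagged folds were 3.51, 5.01 and 4.91 in HIF-2a KIN, 5.66, 21.3 and 6.04 in HIF-2a, 14.2, 5.61 and 5.61 in HIF-2a/1a, 9.31, 7.09 and 10.7 in HIF-1a and 14.2, 9.81 and 12.4 in HIF-1a/2a. All but 1 of them lay below that of WT. The site 68.5 kb upstream (chr1:8094183-8098414) had a fold of 5.01 in WT replicate 2. It was 4.01, 8.99 and 4.44 in HIF-2a KIN, 11.1, 14.4 and 9.38 in HIF-2a, 6.60, 15.4 and 11.0 in HIF-2a/1a, 7.61, 7.96 and 5.01 in HIF-1a and 13.5, 13.0 and 11.9 in HIF-1a/2a. In this wide region the summits of the lists were spread, with a median of 2788 bp between them and the summit of best rank, so that the values of different lists can come from different summits. The fourth shared site, 64.6 kb on the gene's side, was the promoter of PARK7, 11 bp from its start (chr1:7960978-7962482), and had no WT call. Its fold was 5.07, 12.6 and 10.4 in HIF-2a KIN, 14.8, 21.2 and 6.76 in HIF-2a, 28.8, 34.4 and 28.7 in HIF-2a/1a, 7.64, 13.9 and 13.2 in HIF-1a and 5.26, 15.8 and 7.80 in HIF-1a/2a. The 3 HIF-2a/1a libraries were above the other 12. Sites 21.3 kb into ERRFI1 and 35.2, 51.2 and 57.7 kb upstream were called in 14, 10, 11 and 10 tagged libraries and in no WT library.

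**Figure D2:**
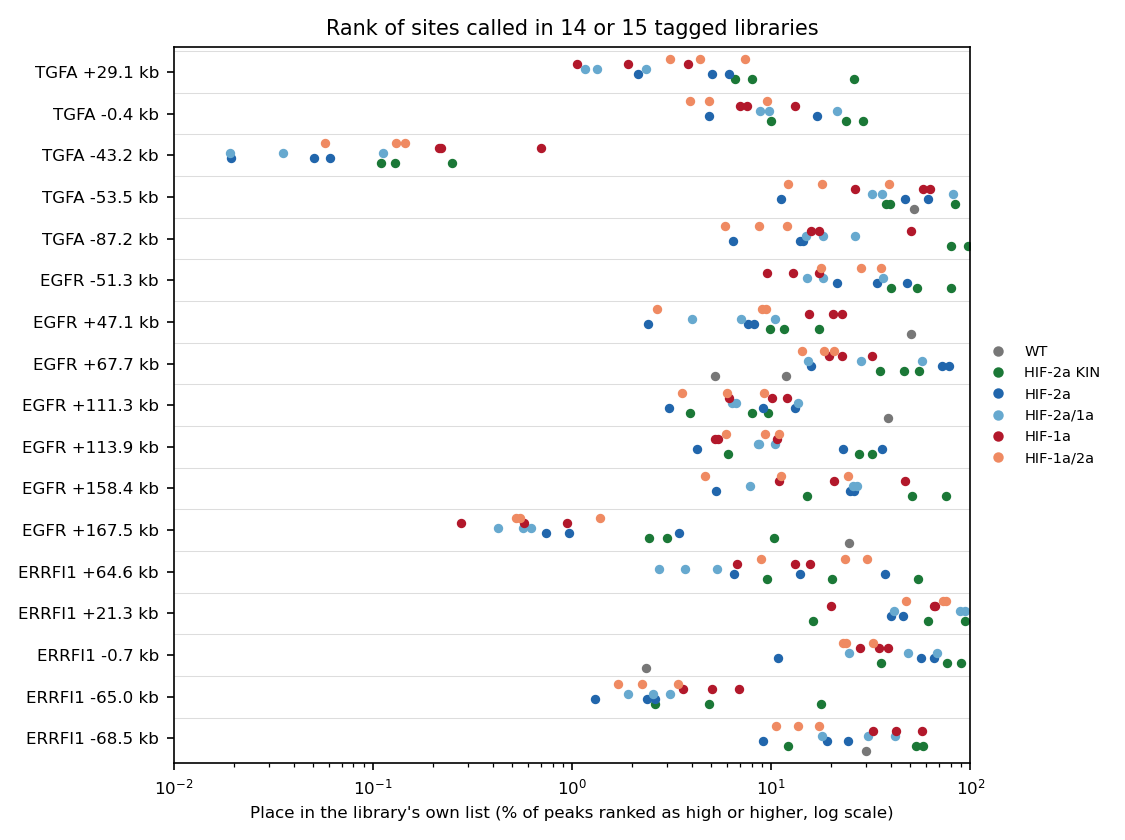
Place of the sites called in 14 or 15 tagged libraries in each library's own list, on a log axis from 0.01% to 100% of the peaks of that list, ordered by p-value. Each point is a library, coloured by line. The TGFA site 43.2 kb upstream lies below 1% in all 15 tagged libraries, and the EGFR site 167.5 kb into the gene is next, with a median place of 96 in the lists.

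Calls in tagged and WT libraries were compared for each of the 25783 regions by a two-sided Fisher's exact test of 15 against 3, adjusted by Benjamini-Hochberg over all regions. The test was passed by 7 of the 86 sites (8.1%), and by 4.66% of regions genome-wide. The 7 were called in 15 tagged and 0 WT libraries, which is the only outcome that could pass (exact p = 0.00123, adjusted p = 0.0263): 2 sites of TGFA (43.2 kb upstream and the intron), 3 of EGFR (51.3 kb upstream, 113.9 and 158.4 kb into the gene) and 2 of ERRFI1 (65.0 kb upstream and the PARK7 promoter). The other 7 shared sites each had a WT call. No member site passed when calls were compared within replicate numbers instead. Without WT replicate 2, 13 of the 14 had no WT call, but the test then gave 0 sites at a smallest adjusted p of 0.118, since 15 against 2 libraries could not reach the threshold. Libraries of 5 lines were pooled as tagged here, and the test treats them as 15 independent units, with a p-value fixed by the counts of calls. Nothing in the labels says that replicates came from separate cultures. The p-values of the enrichment comparisons below measure the spread between these libraries.

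No site passed a test of calls by IDR or by DBD. In the 12 libraries with exogenous protein, the HIF-2α IDR was carried by 6, those of the HIF-2a and HIF-1a/2a lines, and the HIF-1α IDR by the other 6. Of the 86 sites, 29 had more calls with the HIF-2α IDR, 24 with the HIF-1α IDR and 33 equal numbers. For the DBD these numbers were 24, 32 and 30. By two-sided Fisher's exact tests 0 sites passed for either part after adjustment and 0 had an unadjusted p under 0.05, the smallest being 0.0801 for each, where 1.39% of all regions had one for the IDR and 0.555% for the DBD. With 6 against 6 libraries no region in the genome passed after adjustment.

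The size of the enrichment was compared at sites called in all libraries of a comparison. The log2 of the fold was centred on the median of each library over 2720 regions called in all 12 libraries with exogenous protein, and fitted with limma. The members had 17 such sites. Values below are differences on this log2 scale ± SE, with p-values adjusted over all 2720 regions. Since the fit holds only regions that were called everywhere, sites lost in one line are outside it. Each exogenous protein came from a single stable line, so protein, line and expression level cannot be told apart in these comparisons. Expression from the L30 promoter was variegated in the stable lines, per the paper.

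The clearest difference between the HIF-1a and HIF-2a lines was in EGFR. At the intron site 34.4 kb into the gene, enrichment was lower with HIF-1a than with HIF-2a by -1.78 ± 0.50 (limma adjusted p = 0.0250), a 3.42-fold difference, and the HIF-1a library was lower in each of the 3 replicate numbers, by -1.35, -1.56 and -2.42. This was the only one of the 17 sites past the threshold, where 3.24% of the 2720 regions were. The call was lost without HIF-2a replicate 2, HIF-1a replicate 1 or HIF-1a replicate 3, with adjusted p up to 0.183 and differences between -2.18 and -1.49 over the libraries left out in turn. When peaks were joined by summits within 250 bp, this site was not among the regions fitted. The values of different libraries can thus come from different summits of the merged region.

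For HIF-1a minus HIF-2a, 13 of the 17 sites had a negative difference, with a median of -0.48 against -0.05 over all 2720 regions. An unadjusted p under 0.05 was found at 5 sites, all lower with HIF-1a, where 9.78% of regions had one in that direction and 7.06% in the other. Besides the EGFR site above they were the EGFR site 47.1 kb into the gene (-1.46 ± 0.48, adjusted p = 0.0727), the TGFA site 43.2 kb upstream (-1.29 ± 0.48, adjusted p = 0.124), and the ERRFI1 sites 68.5 kb (-1.05 ± 0.48, adjusted p = 0.242) and 65.0 kb upstream (-0.96 ± 0.48, adjusted p = 0.285). These last 4 did not pass the test. The 5 sites were picked by p from the same values, so their negative sign within all 3 replicate numbers adds no further support. On the scale of log2 of −log10 p and on that of the place in the list 6 of the 17 sites passed, where 645 and 561 of the 2720 regions did.

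For the IDR, 12 of the 17 sites had higher enrichment with that of HIF-2α, with a median difference of 0.63 against 0.06 over all regions, of which 54.7% were positive. None of the 17 passed the limma test after adjustment, where 2.28% of regions did. An unadjusted p under 0.05 was found at 8 sites, all higher with the HIF-2α IDR, against 10.6% of regions in that direction and 6.14% in the other. The largest of the 8 was at the weak TGFA site 53.5 kb upstream (0.96 ± 0.34, adjusted p = 0.102), followed by the EGFR sites at 47.1 kb (0.92 ± 0.34, adjusted p = 0.122) and 34.4 kb (0.92 ± 0.35, adjusted p = 0.131). The other 5 were the ERRFI1 sites 68.5 and 65.0 kb upstream (0.83 and 0.81), the TGFA site 87.2 kb upstream (0.75) and the EGFR sites at 111.3 and 158.4 kb (0.71 and 0.69). Neighbouring sites of 1 gene are not independent of each other. The IDR, DBD and HIF-1a minus HIF-2a differences come from the same libraries. The last of them is minus the sum of the IDR and DBD differences, so their counts are not separate results. On the scale of the p-value, as log2 of −log10 p, 10 of the 17 sites passed, and 7 did when the place in the list was used; on those scales 650 and 490 of the 2720 regions passed.

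For the DBD the members were split, with 9 sites higher and 8 lower with that of HIF-2α and a median of 0.04, against 0.01 over all regions. None passed the limma test, where 3.12% of regions did, and 4 had an unadjusted p under 0.05. The PARK7 promoter in the ERRFI1 window (0.99 ± 0.34, adjusted p = 0.0822), the EGFR site at 34.4 kb (0.85 ± 0.35, adjusted p = 0.168) and the TGFA site 43.2 kb upstream (0.78 ± 0.34, adjusted p = 0.202) were higher with the HIF-2α DBD. The EGFR site 226.5 kb from the start was lower (-0.77 ± 0.34, adjusted p = 0.211). Genome-wide 7.57% of regions had such a p with a positive and 8.79% with a negative difference. On the p-value and place scales 5 sites passed each, where 424 and 347 of the 2720 regions did.

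At the TGFA upstream site the IDR difference was 0.51 ± 0.34 (adjusted p = 0.461), beside 0.78 for the DBD. At the TGFA intron site the IDR difference was -0.26 ± 0.36 and the DBD difference 0.46 ± 0.36. A test of whether the effect of one part depended on the other passed at 0 of the 17 sites in limma (smallest adjusted p = 0.929), and 1 had an unadjusted p under 0.05, where 5.15% of the 2720 regions had one and none passed after adjustment.

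**Figure D3:**
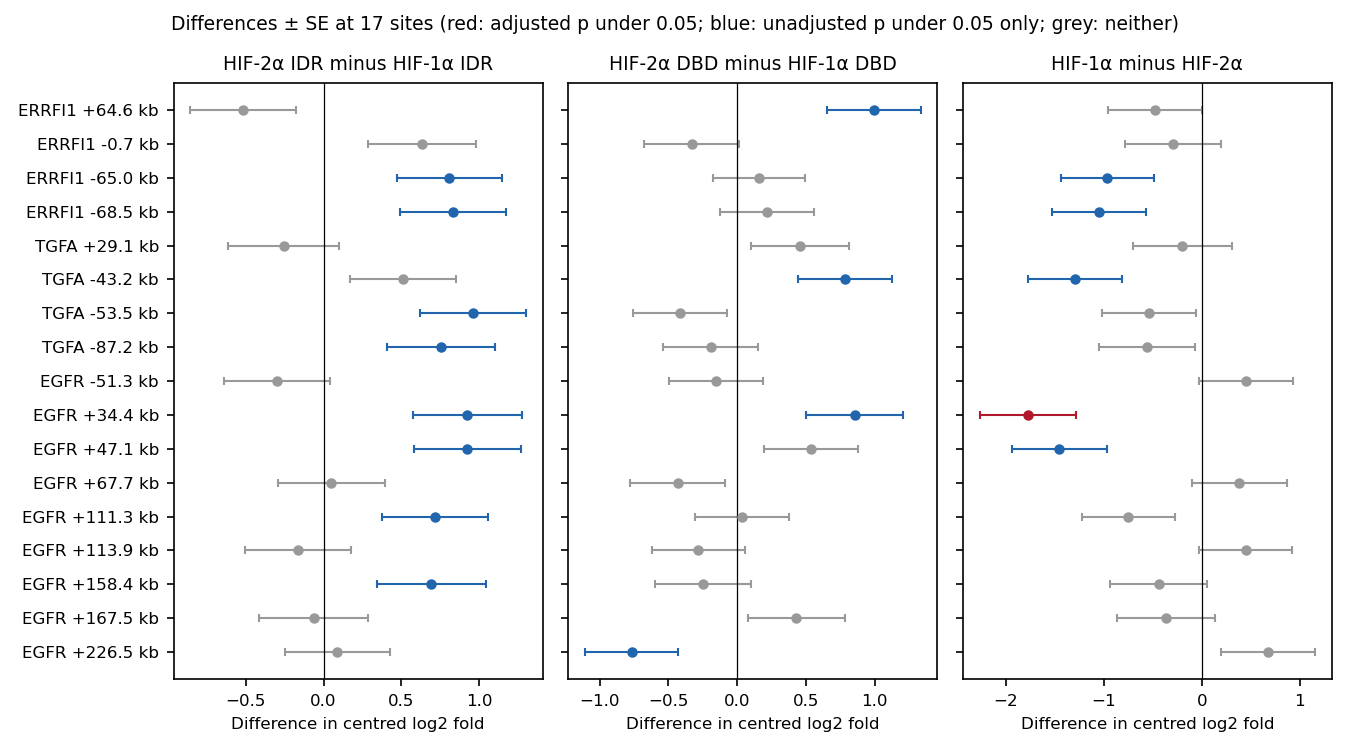
Differences in centred log2 fold with their SE at the 17 sites called in all 12 libraries with exogenous protein, for the IDR, the DBD and HIF-1a minus HIF-2a. Red is an adjusted p under 0.05, blue an unadjusted p under 0.05 only. The 8 blue points of the IDR lie on the side of HIF-2a, and the EGFR site at +34.4 kb is the single red point, at -1.78.

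Exogenous HIF-2a was compared with endogenous HIF-2a in the KIN line over 1815 regions called in all 6 libraries, 14 of them members. None of the 14 passed the limma test (smallest adjusted p = 0.332), as 0.551% of regions did. The TGFA intron site was the only one with an unadjusted p under 0.05, at 1.13 ± 0.47, higher with exogenous HIF-2a in each replicate number (1.27, 1.28 and 0.82), where 4.19% of regions had one in that direction and 6.89% in the other. The TGFA site 43.2 kb upstream differed by -0.09 ± 0.47, an SE that leaves room for a difference in either direction, and the sign changed with the normalization and when single libraries were left out. The EGFR site at 34.4 kb was called in too few KIN libraries to be fitted. The KIN and exogenous lines differ in clone, promoter and tagged copy at once, and these cannot be told apart.

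**Figure D4:**
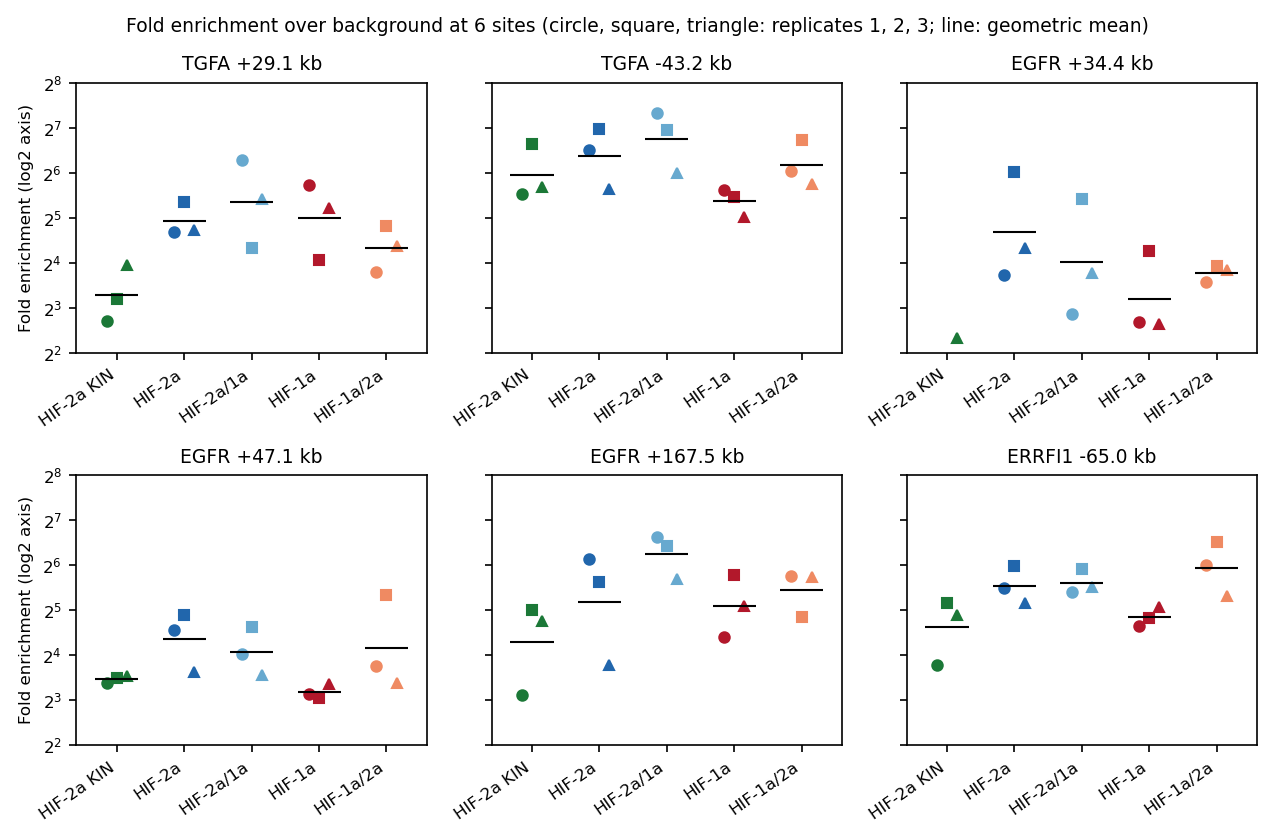
Deposited fold enrichment over the local background, on a log2 axis, at 6 sites in the 5 tagged lines; circles, squares and triangles are replicates 1, 2 and 3 and the line is their geometric mean, before centring. HIF-1a is the lowest of the exogenous proteins at the TGFA site 43.2 kb upstream and at the ERRFI1 site 65.0 kb upstream, and the 3 KIN libraries are below those of HIF-2a at the TGFA intron site.

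Among the members, 3 of 6 genes had a site called in all 15 tagged and no WT library within 100 kb of the gene body, namely TGFA, EGFR and ERRFI1, against 16.7% of 20033 protein-coding genes. The 7 shared sites of EGFR, 3 of them without a WT call, were matched or exceeded by 0.0300% of genes. Its 31 sites in 2 or more lists, 11 of them with a WT call, were matched or exceeded by 0.0599%. Both shares counted sites whatever their WT calls, in windows that grow with the length of the gene. The rest of the pathway was counted in the same way. Of 48 further genes, 10 had a site called in all 15 tagged and no WT library. They were 1 of 7 ligands, 0 of 3 receptors (ERBB2, ERBB3 and ERBB4), 1 of 4 genes for ligand release, 1 of 15 for feedback and receptor turnover and 7 of 19 adaptors and members of the RAS cascade.

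The ligand was EGF, whose site had a median place of 575.5, and the gene for ligand release was RHBDF2, which guides the protease ADAM17 to the cell surface, with 2 sites and a best place of 1647. SPRED1, a RAS pathway inhibitor, had a weak promoter site (place 7171.5). The RAS cascade and adaptor genes included GRB2 (place 51), BRAF (135), MAPK3 (366), HRAS (400), SHC1 (1036.5) and MAP2K1 (3524.5). For GRB2, BRAF, MAPK3, HRAS and RHBDF2 the start nearest to that site was that of another gene (TMEM94, DENND2A, ALDOA, RASSF7 and UBE2O). For TGFA, EGFR and ERRFI1 it was their own, as it was for EGF, SPRED1, SHC1 and MAP2K1.

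The regions most like the TGFA upstream site in their centred log2 fold across the 15 tagged libraries were named by the nearest protein-coding start. They were a region 105.8 kb from SLC45A1 (Pearson's r = 0.84), the promoters of PAM (r = 0.80) and TCEA2 (r = 0.80), a second region 115.7 kb from SLC45A1 (r = 0.78) and one 27.7 kb from CABLES1 (r = 0.77). These were the highest of 1706 regions outside the windows and were chosen for it, and the 15 libraries share lines and replicate sets. Both SLC45A1 regions ranked high as well, with median places of 38 and 12. They start at chr1:8211155 and chr1:8200740, on the upstream side of ERRFI1 and beyond its window, which ends at chr1:8126309. Among the members the nearest in pattern was the EGFR site at 47.1 kb (r = 0.67), which 23 of the 1706 regions exceeded, and the farthest was the EGFR site 51.3 kb upstream (r = -0.43).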

How the data were processed

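Peaks came from 18 anti-V5 Cut&Run libraries of 6 786-O lines, 3 replicates each, grouped by the sample labels. Per the methods and the submitters' processing notes, the authors aligned fragments of 10 to 700 bp to hg38 with Bowtie2 2.3.4.1, used SAMtools 1.8, called peaks with MACS2 (q 0.01, duplicates kept, maximum gap 400 bp) separately in each library with its matched IgG library as control, and removed blacklisted regions with bedtools 2.28.0. The fold enrichment, a ratio over the local background, and the −log10 p and −log10 q of each summit were used as deposited by the authors. The depth behind each list is unknown, and lists of different length were compared as they are. The IgG libraries were not analysed separately.

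Python 3.11.15 (pandas 2.3.3, SciPy 1.17.1, pysam 0.24.0, matplotlib 3.10.9) and R 4.3.3 with limma 3.58.1 were used. Genes were those of GENCODE 44, on the same build. A site's value in a library is that of its peak with the best p, its place is the rank by −log10 p, and its position is the summit of the list that ranked it highest. Calls were compared by Fisher's exact test and enrichment by limma (lmFit, eBayes) across all regions, with Benjamini-Hochberg adjustment at 0.05. The tests were checked on simulated data.

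The members and gene lists were chosen with earlier results of these data known. Sites called in all 15 tagged libraries and the best-ranked site of each gene are described in full, other sites called in 8 or more lists by position and number of libraries, and the remaining ones as counts. The sequences of the EGFR site at 34.4 kb and the TGFA promoter site, and the most frequent AREG site and the EREG promoter site, were added after their values were seen. A region at the PARK7 promoter overlaps a UTR and is not printed. Same-numbered libraries of different lines deviated together only weakly (r over 0.1 in 9 of 30 pairs). Still, 14 of 15 libraries correlated best with their own number. The main tests did not pair libraries by number, and the replicate block was an alternative. Alternatives were a stricter q, lists of equal length, joining by summit, a 50 kb window, a minimum of 3 lists, other scales and normalization, the replicate block, and leaving out each library. The values of 1 pathway gene are not reported here.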

Additional observations from a re-analysis of the deposited data

How the results depend on the processing

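The count of 7 sites called in tagged against WT libraries stayed between 5 and 8 with a stricter q, equal list lengths, joining by summit, a 50 kb window or a minimum of 3 lists. It ranged from 0 to 9 over the libraries left out in turn, and was 0 without any 1 of the WT replicates, because fewer WT libraries cannot reach the threshold. With the replicate block it was 0 (smallest adjusted p = 0.0994). The counts of 0 for calls by IDR and DBD did not change in any of the 18 alternatives for each. With 6 against 6 libraries no region in the genome passed the main test either, so these counts do not show that calls were equal. For enrichment, log2 of −log10 p gave 10 (IDR), 5 (DBD) and 6 (HIF-1α minus HIF-2α) of 17 sites, and the place in the list gave 7, 5 and 6; of all 2720 regions 650, 424 and 645 passed on the first scale and 490, 347 and 561 on the second. The cause was not tested. Leaving out libraries in turn gave 0 to 1 for each of these 3, the 1 being the EGFR site at 34.4 kb without HIF-2α/1α replicate 2 for the IDR and the PARK7 promoter without HIF-2α replicate 3 for the DBD. The single HIF-1α minus HIF-2α call became 0 with lists of equal length, with summits joined within 250 bp and in regions called in all 15 tagged libraries; in none of these was the EGFR site at 34.4 kb among the regions fitted. In the model with the replicate block the counts were 0 for the IDR (smallest adjusted p = 0.0678), 0 for the DBD (0.0554), 1 for HIF-1α minus HIF-2α and 0 for HIF-2α minus KIN, and no enrichment call at a member site changed; 14 of 15 libraries correlated best with their own number. The difference between HIF-2α and KIN gave 0 in all 15 alternatives. The differences named kept their sign in each alternative that could be fitted, except HIF-2a minus KIN at the TGFA site 43.2 kb upstream (-0.09), which was 1.80 by place in the list, 0.24 with quantile normalization and -0.27 to 0.050 over the libraries left out. At the TGFA intron site HIF-1a minus HIF-2a (-0.20) turned to 0.30 by place and 0.018 with quantile normalization, and was -0.69 to 0.42 over the libraries left out. The HRE was found at 29 of the 86 sites (33.7%) within 100 bp, where 44.9% of all regions held it, and at 59 over the whole region. Within 50 kb, 8 of the 48 further pathway genes had a shared site without a WT call, as did 10.8% of protein-coding genes. Numbers of fragments are not in the lists, so how many fragments weak sites with folds near 4 rest on is unknown. Lists of unequal length limit all counts of calls.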
